A study of Homo sapiens with 17 samples.

Results

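Transcript levels of 10 genes of the YAP-TEAD system were followed in BEAS-2B cells exposed to acetaldehyde. The genes were taken by name: the coactivators YAP1 and WWTR1 (which encodes TAZ), the DNA-binding factor TEAD1, and 7 genes known as their targets, namely CCN1, CCN2, ANKRD1, AMOTL1, AMOTL2, LATS2 and AXL. All 10 were found among the 16884 genes of the deposited table, and all 10 passed the filter on low counts that left 12564 genes for testing.

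BEAS-2B is a human bronchial epithelial line immortalised with viral sequence, here of wild-type genotype, and all libraries come from this 1 line, kept in BEGM, a growth medium for bronchial epithelium. The 3 groups received acetaldehyde, a reactive aldehyde of tobacco smoke and ethanol breakdown, at 0 mM (control, 6 libraries), 10 mM (6 libraries) or 16 mM (5 libraries) for 24 h. RNA with a poly-A tail was sequenced. The labels do not tie the libraries to separate cultures, and p-values therefore measure the spread between libraries, which may be technical.

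The Hippo pathway is a kinase cascade in which MST kinases activate the LATS kinases, and the LATS kinases phosphorylate YAP1 and TAZ and hold them out of the nucleus. When the cascade is off, YAP1 and TAZ bind TEAD factors on DNA and raise transcription of target genes. Some targets, such as LATS2 and the angiomotin-like genes, encode inhibitors of YAP1 and so form a negative feedback. In airway epithelium the system is known for its part in basal progenitor cells and in the response to stretch and density. Transcript levels do not show where the YAP1 protein lies or whether it is phosphorylated.

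The sequences just before the transcription starts of 4 of the genes are shown because each carries the short motif to which TEAD factors bind. Of the 10 genes, 8 had an entry among the RefSeq promoters of build GRCh38.p14, with 11 annotated starts between them, and CCN1 and TEAD1 had none. Both strands of the 250 bases before each start were searched for the TEAD motif GGAATG, which on the opposite strand reads CATTCC, and for the AP-1 motif TGANTCA, and no TEAD match shared bases with an AP-1 match. Of all 35116 promoters of the same length, 11.9% held the TEAD motif and 6.57% the AP-1 motif. The sequences run 5′ to 3′ along the gene's strand, and capitals mark the TEAD matches. They lie on the minus strand at chr6:131951373-131951622 (CCN2), chr10:90921088-90921337 (ANKRD1) and chr3:134374448-134374697 (AMOTL2, the second of 2 listed starts), and on the plus strand at chr11:102110197-102110446 (YAP1).
CCN2: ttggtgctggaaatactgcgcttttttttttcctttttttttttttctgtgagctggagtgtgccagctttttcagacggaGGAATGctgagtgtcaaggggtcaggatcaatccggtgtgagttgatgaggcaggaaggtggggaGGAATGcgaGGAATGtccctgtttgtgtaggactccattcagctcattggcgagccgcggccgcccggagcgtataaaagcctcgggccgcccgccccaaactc
ANKRD1: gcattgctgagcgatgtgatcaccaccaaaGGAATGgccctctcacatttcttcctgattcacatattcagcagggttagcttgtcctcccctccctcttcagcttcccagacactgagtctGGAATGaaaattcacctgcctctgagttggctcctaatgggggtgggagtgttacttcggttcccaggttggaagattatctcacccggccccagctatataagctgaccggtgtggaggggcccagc
AMOTL2: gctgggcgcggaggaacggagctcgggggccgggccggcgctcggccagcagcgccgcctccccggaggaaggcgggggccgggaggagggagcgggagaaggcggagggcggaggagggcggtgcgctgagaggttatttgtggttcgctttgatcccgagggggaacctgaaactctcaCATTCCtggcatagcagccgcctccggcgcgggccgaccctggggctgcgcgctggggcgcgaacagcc
YAP1: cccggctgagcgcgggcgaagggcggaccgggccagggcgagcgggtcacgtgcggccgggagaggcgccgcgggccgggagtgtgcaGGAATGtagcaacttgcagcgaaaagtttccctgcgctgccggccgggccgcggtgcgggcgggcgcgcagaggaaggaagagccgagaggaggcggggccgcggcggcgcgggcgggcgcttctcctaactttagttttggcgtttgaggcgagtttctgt

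CCN2 held 3 TEAD matches, beginning 169, 104 and 95 bases before its start. ANKRD1 held 2, beginning 220 and 128 bases before the start, with 1 AP-1 match between them at 195. GENCODE 29 begins the ANKRD1 gene at 90921276, inside this window, so the match at 128 bases lies within that gene. YAP1 had 1 match at 162 bases, the second AMOTL2 start 1 at 69 bases on the other strand, and the second AXL start 1 at 212 bases on the other strand. The listed promoters of WWTR1, AMOTL1 and LATS2, the first AMOTL2 start and the first AXL start had no match in this window. All listed starts of WWTR1 and AMOTL1 lie inside the deposited gene spans, so the bases before the outer ends of these genes were not searched. A match describes the letters only. No binding was measured here.

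**Figure D1:**
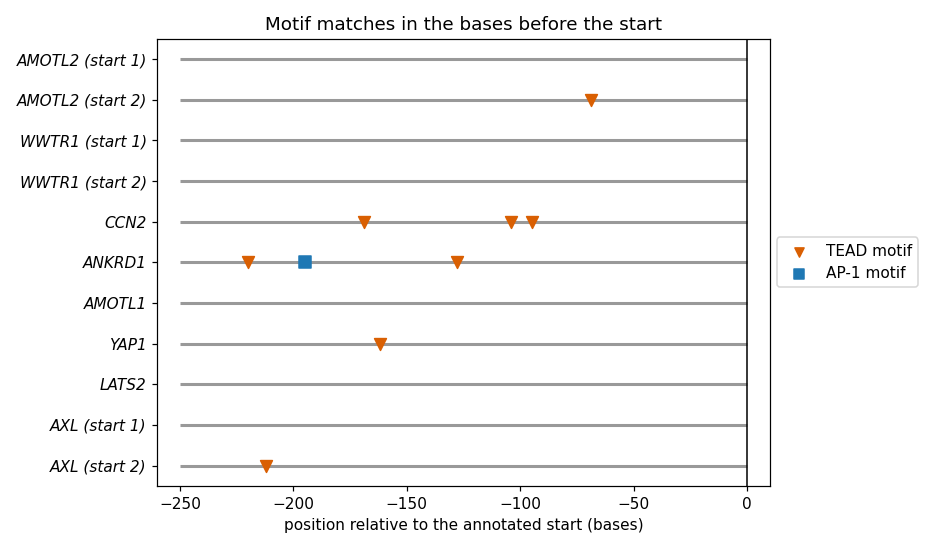
Positions of the TEAD motif (triangles) and the AP-1 motif (square) in the 250 bases before 11 annotated starts of 8 genes, with the distance from the start in bases on the x axis. CCN2 carries 3 TEAD matches, ANKRD1 2, and YAP1, the second AMOTL2 start and the second AXL start 1 each.

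Total estimated counts lay between 15952673 and 18809242 per library. One library stood apart from the rest. In 10 mM library 1 the FPKM values (levels scaled for transcript length and sequencing depth) summed to 977402.9, against 506794.9 to 554076.8 in the other 16 libraries. Its TMM factor, edgeR's scaling for RNA composition, was 0.559, against at least 0.967. Its correlation of log levels with the other 10 mM libraries was 0.840 to 0.866, while other pairs within a group reached 0.977 or more. Each test of the 10 genes is therefore given with all 17 libraries and without this one. Within groups the libraries also lay in closer sets, which no label names: control 1 to 3 and 4 to 6, 10 mM 2 to 4 and 5 to 6, and 16 mM 1 to 3 and 4 to 5. Pairs within a set had r of 0.991 to 0.995 and still differed by more than sampling noise (chi-square per degree of freedom of at least 1.72).

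Of the 6 epithelial markers checked, KRT8, KRT18 and KRT7 stood at mean control levels of 306, 377 and 559 FPKM. The other 3 were at or near 0: KRT19 was listed at 0 in every control library, and EPCAM and CDH1 had control means of 0.0167 and 0.045 FPKM, although the label calls the cells epithelial. The summed level of 7 fibroblast markers was 15.1 to 25.1 FPKM in controls, 2.75 to 16.7 at 10 mM and 4.91 to 10.0 at 16 mM, with COL1A2 and COL3A1 near 0. Without 10 mM library 1 the 10 mM sums were 11.0 to 16.7 FPKM, still overlapping the controls. The fibroblast markers did not move alike. In 10 mM libraries 2 to 6 COL1A1 stood at 5.32 to 7.75 FPKM, above the controls (2.52 to 4.84). PDGFRB stood there at 4.67 to 7.89 FPKM, below the controls (9.11 to 16.56). The sum of 6 leukocyte and endothelial markers was 2.67 to 4.41, 7.82 to 12.5 and 9.82 to 13.3 FPKM, nearly all of it CD68, while PTPRC, CD3E, PECAM1, CDH5 and VWF were at or near 0. Both sums differed between groups, with overlap between some of them, and their part in the results was not tested. In bulk RNA, fewer cells of a kind and less RNA per cell cannot be told apart.

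In control cells the secreted matrix proteins were the most abundant of the 10 transcripts on the FPKM scale, which is per length. CCN1 stood highest at 353 ± 70.4 FPKM (SD, n = 6) and CCN2 next at 277 ± 70.9, with overlapping ranges. AXL followed at 114 ± 27.5 and YAP1 at 56.5 ± 2.76, each clear of its neighbours. AMOTL2 (45.3 ± 1.24) and TEAD1 (42.7 ± 1.87) overlapped, and ANKRD1 (25.7 ± 1.85) stood alone below them. At the low end WWTR1 (17.5 ± 1.47) overlapped with LATS2 (15.7 ± 1.07), and LATS2 with AMOTL1 (12.5 ± 1.52).

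**Figure D2:**
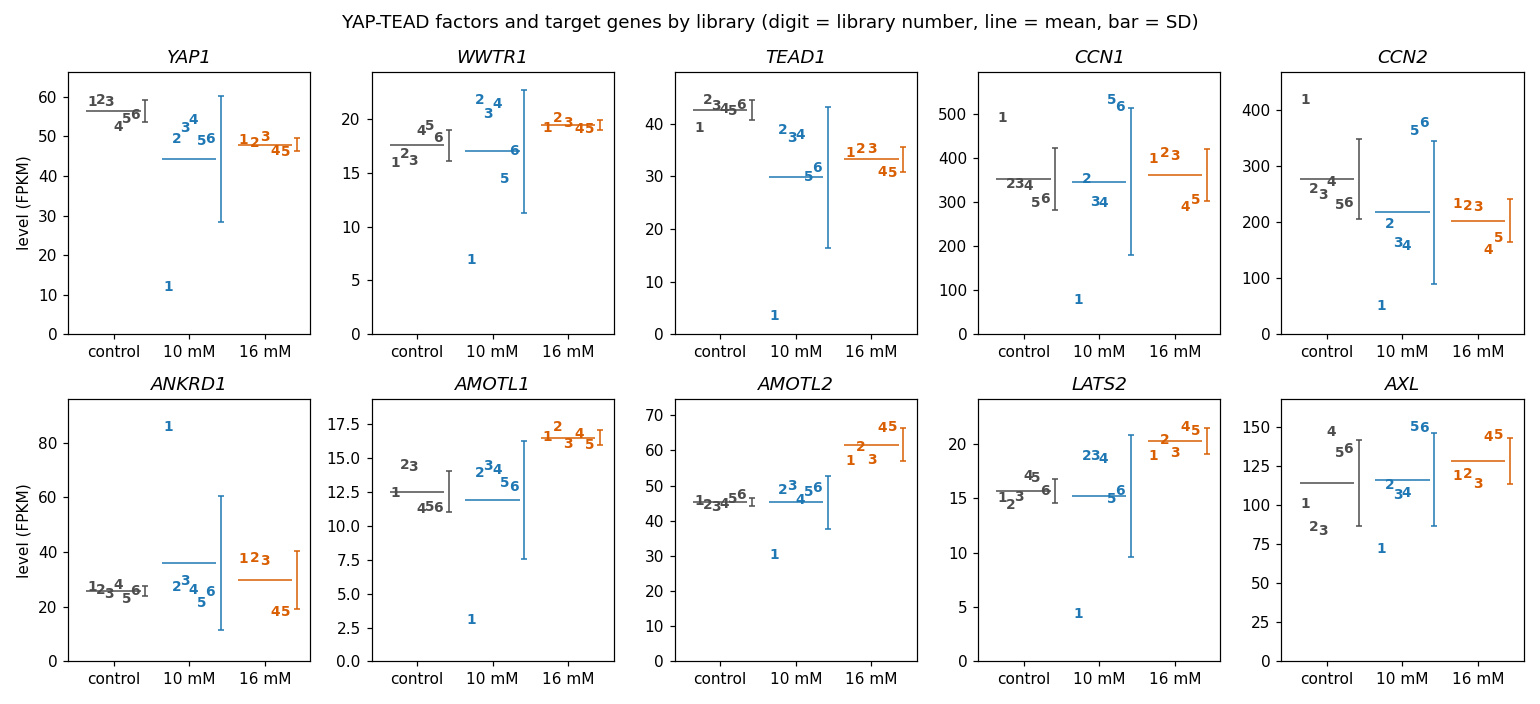
FPKM of each of the 10 genes (y axis, from 0) in control, 10 mM and 16 mM libraries, with each library drawn as its number, the group mean as a line and the SD as a bar. AMOTL1, AMOTL2 and LATS2 are higher in every 16 mM library than in every control library, and YAP1 and TEAD1 are lower. Of all genes, 46.1% do not overlap between these groups. The 10 mM library 1 is the lowest 10 mM library for 9 genes and the highest for ANKRD1.

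Across the 10 genes, the estimates went in both directions and most were small. With all libraries, edgeR's quasi-likelihood test (Benjamini-Hochberg adjusted p under 0.05 over all genes tested) called 0 of the 10 at 10 mM against control, where 18.7% of all genes were called. By edgeR 0 of the 10 had an unadjusted p under 0.05 there. DESeq2 and limma also called 0, DESeq2 with 2 at an unadjusted p under 0.05. At 16 mM against control 1 of 10 was called, higher, where 35.3% of all genes were called in either direction and 17.3% higher. Between the doses 1 of 10 was called, higher at 16 mM, beside 14.1% of all genes in either direction and 6.69% higher. The median log2 change of the 10 genes was 0.01, 0.17 and 0.11 in these comparisons, beside 0.05, 0.00 and -0.06 for all genes.

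Leaving out 10 mM library 1 lowered the spread that all 3 comparisons share. Then 2 of 10 genes were called at 10 mM, both lower, where 45.2% of all genes were called and 22.8% lower. At 16 mM against control 5 of 10 were called, 3 higher and 2 lower, beside 65.9% of all genes (33.7% higher, 32.2% lower). Between the doses 3 of 10 were called, all higher at 16 mM, beside 44.1% of all genes (23.2% higher). Counted in either direction, the share of the 10 was below that of all genes in each comparison. The medians of the 10 genes were then 0.10, 0.18 and 0.06, beside 0.00, 0.01 and -0.00 for all genes.

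Counting only genes whose FPKM ranges did not overlap gave 1 of 10 at 10 mM against control (15.1% of all genes), 5 of 10 at 16 mM against control (46.1%) and 2 of 10 between the doses (17.8%). In the authors' deposited table, 3 of the 10 had a q under 0.05 as higher and 3 as lower at 16 mM, beside 50.4% of its genes in either direction (25.0% higher, 25.4% lower). It called 0 of 10 at 10 mM (15.4% of its genes) and 0 of 10 between the doses (9.52%). The lower genes at 16 mM in the authors' deposited table were YAP1, TEAD1 and CCN2, and the higher ones AMOTL1, AMOTL2 and LATS2.

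**Figure D3:**
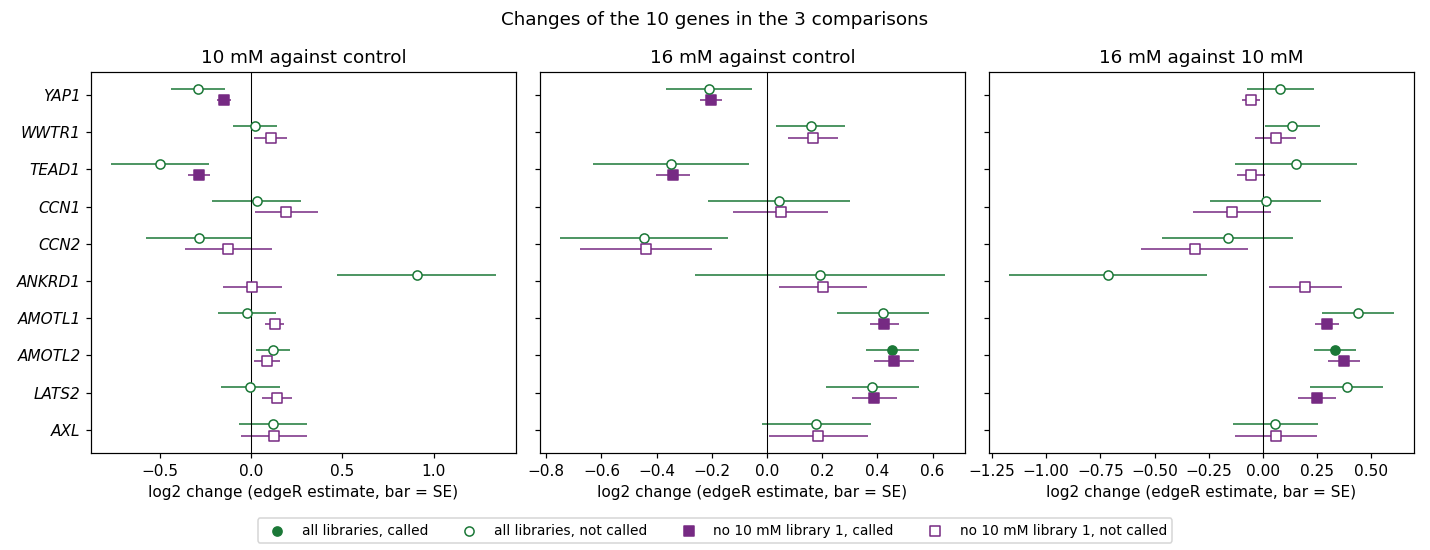
Log2 change (x axis) with its SE for the 10 genes in the 3 comparisons, from edgeR with all libraries (circles) and without 10 mM library 1 (squares); filled symbols have an adjusted p under 0.05. With all libraries only AMOTL2 is filled, in both comparisons of 16 mM, and without the library the estimate for ANKRD1 at 10 mM goes from 0.91 to 0.01.

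YAP1 and TEAD1 were lower in every 16 mM library than in every control library, and WWTR1 was not. Between these groups 46.1% of all genes had FPKM ranges that did not overlap, in either direction. YAP1, which binds TEAD factors and carries the activation domain, has gene ID 10413 and lies at chromosome 11, 102109827 to 102233424 (GRCh38.p13, as deposited). Its control libraries ran from 52.4 to 59.2 FPKM with a median of 57.1. The 16 mM libraries held 49.2, 48.3, 49.9, 46.2 and 46.1 FPKM, all below the lowest control. At 10 mM the lowest, median and highest values were 12.1, 49.4 and 54.1, with library 1 the lowest. The libraries other than library 1 ran from 48.8 to 54.1, and only the highest of them reached into the control range. The log2 change at 16 mM was -0.21 ± 0.16 (SE, edgeR adjusted p = 0.32) with all libraries and -0.20 ± 0.04 (adjusted p = 0.00029) without 10 mM library 1. YAP1 thus fell, by the test, in the fit without that library and not in the fit with all libraries. Fitting only the 16 mM and control libraries in edgeR also called YAP1 (-0.21, adjusted p = 0.00094) and TEAD1 (-0.34, adjusted p = 0.00013). That fit called 7979 of 12410 genes. For 10 mM the YAP1 change was -0.29 ± 0.15 (edgeR adjusted p = 0.17) with all libraries and -0.15 ± 0.04 (adjusted p = 0.0068) without 10 mM library 1. Between the doses the estimate was 0.08 ± 0.15 (adjusted p = 0.75) and, without the library, -0.06 ± 0.04 (adjusted p = 0.30).

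TEAD1 encodes a member of the TEAD family, whose factors bring YAP1 and TAZ to DNA, has gene ID 7003 and lies at chromosome 11, 12674421 to 12946124. Control libraries ran from 39.2 to 44.5 FPKM, median 43.2. At 16 mM they held 34.4, 35.3, 35.2, 30.8 and 30.6 FPKM. Exposure to 10 mM gave values from 3.48 in library 1 to 38.9, with a median of 34.5. TEAD1 was the 1 gene of the 10 whose 10 mM libraries all lay below all controls, and its 16 mM libraries did so too. Of all genes, 15.1% did not overlap with controls at 10 mM and 46.1% at 16 mM, in either direction. The log2 change was -0.35 ± 0.28 at 16 mM (edgeR adjusted p = 0.37) and -0.34 ± 0.06 (adjusted p = 0.00012) without 10 mM library 1. For 10 mM it was -0.50 ± 0.27 (adjusted p = 0.19) and -0.28 ± 0.06 (adjusted p = 0.0012). Between the doses it was 0.15 ± 0.28 (adjusted p = 0.74) and -0.06 ± 0.06 (adjusted p = 0.50). Both exposed groups also showed the closer sets: 10 mM libraries 5 and 6 (29.9 and 31.6 FPKM) lay below libraries 2 to 4 (37.4 to 38.9).

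WWTR1, which encodes TAZ, the paralog of YAP1, has gene ID 25937 and lies at chromosome 3, 149517235 to 149736714. Its control libraries ran from 15.9 to 19.3 FPKM, median 17.5. At 16 mM they held 19.2, 20.1, 19.7, 19.1 and 19.1, a narrow band at and just above the top of the control range. The 10 mM group had 6.88, 18.7 and 21.8 as lowest, median and highest, which spans the controls. The change at 16 mM was 0.16 ± 0.13 (edgeR adjusted p = 0.36), and 0.17 ± 0.09 (adjusted p = 0.12) without 10 mM library 1. At 10 mM it was 0.02 ± 0.12 (adjusted p = 0.91) and 0.11 ± 0.09 (adjusted p = 0.36). Between the doses it was 0.14 ± 0.13 (adjusted p = 0.47) and 0.06 ± 0.10 (adjusted p = 0.64). WWTR1 met the threshold in none of these 6 tests.

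The matricellular proteins CCN1 and CCN2 are the targets most often used as a readout of YAP-TEAD activity. CCN1 (CYR61), which binds integrins, has gene ID 3491 and lies at chromosome 1, 85580761 to 85583950. Its control libraries ran from 299 to 492 FPKM with a median of 339, library 1 being the highest. At 16 mM, libraries 1 to 5 held 398, 411, 405, 289 and 304 FPKM, so libraries 1 to 3 lay above the control median and libraries 4 and 5 below it. Lowest, median and highest at 10 mM were 77.2, 327 and 532 FPKM. The groups overlapped in every comparison. The change was 0.04 ± 0.26 at 16 mM (edgeR adjusted p = 0.92) and 0.03 ± 0.25 at 10 mM (adjusted p = 0.94). Between the doses it was 0.01 ± 0.26 (adjusted p = 0.98). Without 10 mM library 1 these were 0.05 ± 0.17 (adjusted p = 0.81), 0.19 ± 0.17 (0.38) and -0.14 ± 0.18 (0.54).

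CCN2 (CTGF), a matrix protein linked to fibrosis, has gene ID 1490 and is listed at chromosome 6, 131943656 to 132084388. That deposited span is 140.7 kb, whereas GENCODE 29 gives the gene 3.2 kb, and whether reads of other transcripts were counted to it was not tested. CCN2 ran from 231 to 419 FPKM in controls, median 254, again with library 1 the highest. At 16 mM, the libraries held 233, 230, 227, 151 and 172 FPKM. Only library 1 reached the lowest control, libraries 2 and 3 lay just below it, and libraries 4 and 5 lay well below. Lowest, median and highest at 10 mM were 49.8, 180 and 378 FPKM, with libraries 5 and 6 (363 and 378) far above libraries 2 to 4 (157 to 197). The change was -0.45 ± 0.30 at 16 mM (edgeR adjusted p = 0.28) and -0.29 ± 0.29 at 10 mM (adjusted p = 0.50). Between the doses it was -0.16 ± 0.30 (adjusted p = 0.74). Without 10 mM library 1 these were -0.44 ± 0.24 (adjusted p = 0.11), -0.12 ± 0.24 (0.70) and -0.32 ± 0.25 (0.32). Without control library 1 the CCN2 change at 16 mM was -0.30 (adjusted p = 0.51), and that of CCN1 was 0.16 (adjusted p = 0.70). Fitting only the 16 mM and control libraries in edgeR gave -0.44 for CCN2 with an adjusted p of 0.024, and the authors' deposited table gives it a q of 0.0092 at 16 mM. Whether CCN2 was called at 16 mM thus depended on which libraries shared the fit.

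CCN1 and CCN2 were high in the same libraries (control 1, 10 mM 5 and 6) and both lowest in 10 mM library 1, so their ratio was taken within each library. This ratio was chosen after its values were seen. In control libraries 1 to 6 CCN2 stood at 0.852, 0.760, 0.730, 0.810, 0.775 and 0.759 of the CCN1 level in FPKM (mean 0.781 ± 0.0433, SD). At 16 mM it stood at 0.585, 0.559, 0.561, 0.523 and 0.566 (mean 0.559 ± 0.0226). At 10 mM libraries 1 to 6 held 0.645, 0.559, 0.540, 0.527, 0.682 and 0.732 (mean 0.614 ± 0.0844). All 5 libraries of 16 mM lay below all controls, and at 10 mM only library 6 reached the lowest control. The mean log2 ratio at 16 mM differed from controls by -0.48, that at 10 mM by -0.36, and the doses differed by -0.13. The last 2 differences were, with 10 mM library 1 left out, -0.37 and -0.11. No test is given for the ratio, since its values chose it.

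**Figure D4:**
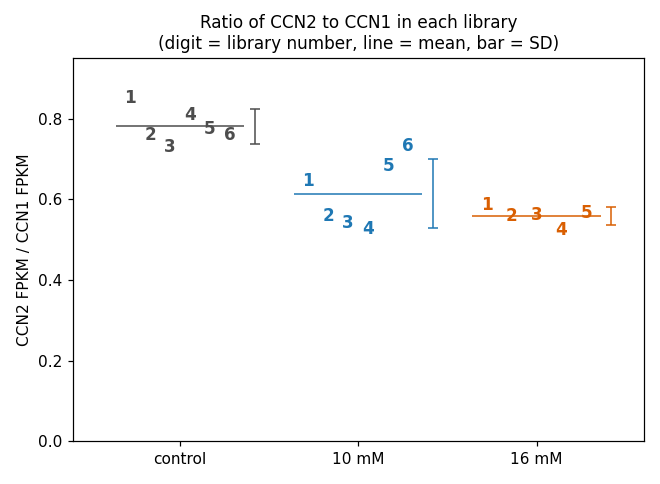
Ratio of CCN2 to CCN1 in FPKM (y axis, from 0) for each library, drawn as its number, with the group mean as a line and the SD as a bar. The 16 mM libraries lie between 0.523 and 0.585, all below the control libraries at 0.730 to 0.852, and the 10 mM libraries span 0.527 to 0.732.

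ANKRD1 encodes a nuclear ankyrin-repeat cofactor induced by stretch and is another common YAP-TEAD readout. Control libraries held a narrow range of 22.7 to 27.9 FPKM, median 26.0. At 16 mM libraries 1 to 3 stood at 37.6, 37.9 and 36.5 FPKM, above all controls, and libraries 4 and 5 at 18.1 and 17.9, below all controls. The 5 libraries of 1 dose thus fell on both sides of the control group with none inside it, along the closer sets described above. At 10 mM library 1 held 85.6 FPKM, and the other 10 mM libraries ran from 21.4 to 29.4. The group median was 26.6, close to the control median. With all libraries the log2 change was 0.91 ± 0.44 at 10 mM (edgeR adjusted p = 0.15), and without library 1 it was 0.01 ± 0.16 (adjusted p = 0.98). At 16 mM against control it was 0.19 ± 0.45 (adjusted p = 0.78), and 0.20 ± 0.16 (adjusted p = 0.27) without the library. The change between doses turned from -0.72 ± 0.46 (adjusted p = 0.29) to 0.20 ± 0.17 (adjusted p = 0.36). ANKRD1 (gene ID 27063) is listed at chromosome 10, 90280978 to 91533296, a span of 1252.3 kb where GENCODE 29 gives 9.2 kb, and whether reads of other transcripts were counted to it was not tested.

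The feedback inhibitors AMOTL1, AMOTL2 and LATS2 were higher in every 16 mM library than in every control library. Of all genes, 46.1% had FPKM ranges that did not overlap there, in either direction. With all libraries only AMOTL2 passed the edgeR test, beside 35.3% of all genes (17.3% higher). Without 10 mM library 1 all 3 passed, beside 65.9% of all genes (33.7% higher). All 3 also passed when only the 16 mM and control libraries were fitted in edgeR (adjusted p of 5.6e-05 to 0.0015). That fit called 7979 of 12410 genes. AMOTL2, an angiomotin-like scaffold that binds YAP1 and holds it at junctions, has gene ID 51421 and lies at chromosome 3, 134351852 to 134379588. Control libraries ran from 43.9 to 47.2 FPKM, median 45.2. The 16 mM libraries held 57.0, 60.9, 57.3, 66.3 and 66.6 FPKM, all above every control and every 10 mM library. The 10 mM lowest, median and highest were 30.2, 48.4 and 49.9. AMOTL2 rose by 0.45 ± 0.10 on the log2 scale at 16 mM (edgeR adjusted p = 0.0015), or 1.37-fold, and by 0.46 ± 0.07 (adjusted p = 2.5e-05) without 10 mM library 1. Against 10 mM it rose by 0.33 ± 0.10 (adjusted p = 0.030), and by 0.37 ± 0.07 (adjusted p = 0.00089) without the library. This second call was lost (adjusted p of 0.055 to 0.10) when 10 mM library 2, 3 or 4 or 16 mM library 4 or 5 was left out. In edgeR it was also lost with the replicate number as a block (adjusted p = 0.0549) and with DESeq2 size factors (0.0565). Fitting only the 10 mM and 16 mM libraries lost it too (0.11), whereas DESeq2 and limma kept it. At 10 mM against control AMOTL2 differed by 0.12 ± 0.09 (adjusted p = 0.36), and by 0.09 ± 0.07 (adjusted p = 0.35) without the library. Summing the closer sets to 1 sample each left the 16 mM change at 0.49 with an adjusted p of 0.69, where 0 of all genes were called. With 10 mM library 1 also left out, a setting chosen after seeing the data, it was 0.48 (edgeR adjusted p = 0.064). In that setting AMOTL1 was the 1 gene of the 10 called at 16 mM (0.42, adjusted p = 0.044), beside 3480 of all 13465 genes tested. YAP1 (-0.22, adjusted p = 0.28), TEAD1 (-0.36, adjusted p = 0.12) and LATS2 (0.40, adjusted p = 0.092) were then not called. The pseudogene RPL39P5 overlaps an exon of AMOTL2 on the same strand, and its reads could not be told apart.

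AMOTL1, a paralog with the same kind of YAP1-binding motif, has gene ID 154810 and lies at chromosome 11, 94706418 to 94925521. Control libraries ran from 11.3 to 14.5 FPKM, median 11.9. Those of 16 mM held 16.6, 17.3, 16.0, 16.8 and 16.0, above all other libraries. The 10 mM values ran from 3.09 in library 1 to 14.4, with a median of 13.5, across the control range. The change at 16 mM was 0.42 ± 0.17 (edgeR adjusted p = 0.058) with all libraries and 0.43 ± 0.05 (adjusted p = 2.4e-06) without 10 mM library 1. DESeq2 called this change with all libraries (adjusted p = 0.030). Against 10 mM it was 0.44 ± 0.17 (adjusted p = 0.082) and 0.30 ± 0.06 (adjusted p = 0.00055). At 10 mM against control it was -0.02 ± 0.16 (adjusted p = 0.94) and 0.13 ± 0.05 (adjusted p = 0.058).

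LATS2 encodes a kinase of the cascade that phosphorylates YAP1 and TAZ, has gene ID 26524 and lies at chromosome 13, 20973036 to 21061586. Control libraries ran from 14.4 to 17.1 FPKM, median 15.4. The 16 mM libraries held 18.9, 20.4, 19.2, 21.5 and 21.2 FPKM, all above the controls. Those of 10 mM ran from 4.32 to 18.9 with a median of 17.2, the highest being just above the lowest 16 mM library. The change at 16 mM was 0.38 ± 0.17 (edgeR adjusted p = 0.091), and 0.39 ± 0.08 (adjusted p = 0.00049) without 10 mM library 1. Against 10 mM it was 0.39 ± 0.17 (adjusted p = 0.13) and 0.25 ± 0.09 (adjusted p = 0.026). At 10 mM it was -0.00 ± 0.16 (adjusted p = 0.99) and 0.14 ± 0.08 (adjusted p = 0.18). In the fit without the library, AMOTL1, AMOTL2 and LATS2 thus rose at 16 mM by 1.34-fold, 1.38-fold and 1.31-fold.

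AXL, a receptor tyrosine kinase for GAS6 linked to invasion and drug tolerance, has gene ID 558 and lies at chromosome 19, 41219223 to 41262385. Control libraries ran from 83.5 to 147 FPKM, median 117. Those of 16 mM held 119, 120, 113, 144 and 145, and at 10 mM the lowest, median and highest were 71.7, 110 and 150. In each group the later-numbered set was the higher: 133 to 147 against 83.5 to 101 in controls, 149 to 150 against 106 to 113 at 10 mM and 144 to 145 against 113 to 120 at 16 mM. These differences within a group were larger than those between doses. The log2 change of AXL was 0.18 ± 0.20 at 16 mM (edgeR adjusted p = 0.53), 0.12 ± 0.19 at 10 mM (adjusted p = 0.68) and 0.06 ± 0.20 between the doses (adjusted p = 0.86). Without 10 mM library 1 these were 0.19 ± 0.18 (0.38), 0.13 ± 0.18 (0.60) and 0.06 ± 0.19 (0.82). AXL passed in neither of these fits. A fit with the closer set as a term, chosen after seeing the data and made without 10 mM library 1, called AXL higher at 16 mM (0.27, edgeR adjusted p = 0.0011) and at 10 mM (0.20, adjusted p = 0.013), and not between the doses (0.07, adjusted p = 0.39). That fit called 9284 of 12545 genes at 16 mM and 7223 at 10 mM.

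In 10 mM library 1 the direction of some genes depended on the scale. TEAD1 stood there at 0.152 times the control mean in TMM-scaled counts per library size (CPM) and at 0.0815 times in FPKM, and ANKRD1 at 6.29 and 3.32 times. AMOTL2 stood at 1.24 times in CPM but at 0.666 times in FPKM, and AXL at 1.08 and 0.628 times. YAP1, CCN1, CCN2, AMOTL1, LATS2 and WWTR1 were below the control mean on both scales, at 0.339 to 0.732 times in CPM. The edgeR estimates use counts, whereas the FPKM levels are per library as deposited.

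Genes whose pattern most resembled a member's were sought over the 16 libraries without 10 mM library 1, by Pearson's r of log2(FPKM + 1) among 9455 genes with a mean of at least 5 FPKM. These libraries share the group and set differences, so the values describe and test nothing. Closest to YAP1 were ARL6IP6 (r = 0.973), SIAE (0.972) and PCM1 (0.971). EGR1 (0.916), RHOB (0.847) and NR4A1 (0.847), genes known for a fast response to growth factors and stress, were closest to CCN1. RHOB (0.952) also stood nearest to CCN2, ahead of PDAP1 (0.850) and TTC27 (0.846). For ANKRD1 the nearest was CRY1 (0.940), a component of the circadian clock, ahead of TRMT11 (0.884) and KIAA0753 (0.865). CRY1 stood at 27.5 ± 7.24 FPKM at 16 mM (SD, n = 5) against 24.2 ± 1.13 in controls (n = 6).

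The rest of the pathway was read from a list of 54 other genes, of which 52 were tested. With all libraries 4 were higher and 6 lower at 10 mM, 7 higher and 6 lower at 16 mM, and 2 higher and 1 lower at 16 mM against 10 mM. The corresponding shares of all genes are the 18.7%, 35.3% and 14.1% given above, and the list's medians were -0.06, 0.02 and 0.11. Without 10 mM library 1 the counts were 10 and 12, 17 and 13, and 9 and 3, beside 45.2%, 65.9% and 44.1% of all genes.

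Among the other TEAD genes and cofactors 0 of 5 tested was called in any comparison by edgeR with all libraries, with 1, 1 and 0 at an unadjusted p under 0.05. DESeq2 gave the same counts. Of all genes, edgeR with all libraries called 18.7%, 35.3% and 14.1% in these comparisons. Leaving out 10 mM library 1, edgeR called TEAD4 lower at 10 mM (-0.16 ± 0.05, adjusted p = 0.024) and higher at 16 mM than at 10 mM (0.17 ± 0.06, adjusted p = 0.021), and TEAD3 higher at 16 mM (0.22 ± 0.07, adjusted p = 0.010). TEAD3 and TEAD4 are named because of these values. Of 26 kinases, scaffolds and upstream regulators, 2 rose and 4 fell at 10 mM, where 18.7% of all genes were called, and 4 rose and 3 fell at 16 mM, where 35.3% were. These counts without 10 mM library 1 were 8 and 6, and 12 and 6, beside 45.2% and 65.9% of all genes. AJUBA, a LIM protein that inhibits the LATS kinases, fell from 87.4 ± 3.80 FPKM in controls to 40.0 ± 14.2 at 10 mM and 33.6 ± 2.67 at 16 mM. Its log2 changes were -1.05 ± 0.16 (edgeR adjusted p = 0.00027) and -1.30 ± 0.17 (adjusted p = 1.8e-05), with no overlap with the controls. NF2, the upstream activator merlin, rose by 0.60 ± 0.10 (adjusted p = 0.00054) and 0.68 ± 0.10 (adjusted p = 8.2e-05). AMOT, the angiomotin of the same family as AMOTL1 and AMOTL2, changed by -0.70 ± 0.20 (adjusted p = 0.023) and -0.65 ± 0.21 (adjusted p = 0.024), opposite in sign to AMOTL2 at 16 mM. The AMOT call at 16 mM was lost without 16 mM library 4 or 5 (adjusted p = 0.066 in both). CSNK1E, a casein kinase, rose between the doses by 0.31 ± 0.08 (adjusted p = 0.024). Its call was lost (adjusted p of 0.051 to 0.075) without 10 mM library 2 or 6 or 16 mM library 2, 4 or 5. The AJUBA, NF2, AMOT and CSNK1E changes named here were all called without 10 mM library 1, with AJUBA at -0.90 ± 0.05 and -1.30 ± 0.05.

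Of 21 other genes known as YAP-TEAD targets, 2 rose and 2 fell at 10 mM and 3 rose and 3 fell at 16 mM, beside the same shares of all genes (18.7% and 35.3%). The target counts without 10 mM library 1 were 2 and 5, and 4 and 7, beside 45.2% and 65.9%. RBMS3, an RNA-binding protein, fell from 3.85 ± 0.372 FPKM in controls to 0.892 ± 0.216 at 10 mM (edgeR adjusted p = 2.9e-07) and 0.410 ± 0.0636 at 16 mM (adjusted p = 2.7e-09). CCDC80, a matrix protein, fell by 1.11 (SE 0.21, adjusted p = 0.0014) and 1.67 (SE 0.22, adjusted p = 2.5e-05). FOXF2, a transcription factor, rose between the doses by 0.40 ± 0.12 (adjusted p = 0.032). This last call was lost (adjusted p of 0.059 to 0.094) without 10 mM library 2, 4 or 5 or 16 mM library 2, 4 or 5. RBMS3 and CCDC80 were also called lower at both doses without 10 mM library 1, and FOXF2 higher at 16 mM than at 10 mM.

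**Figure D5:**
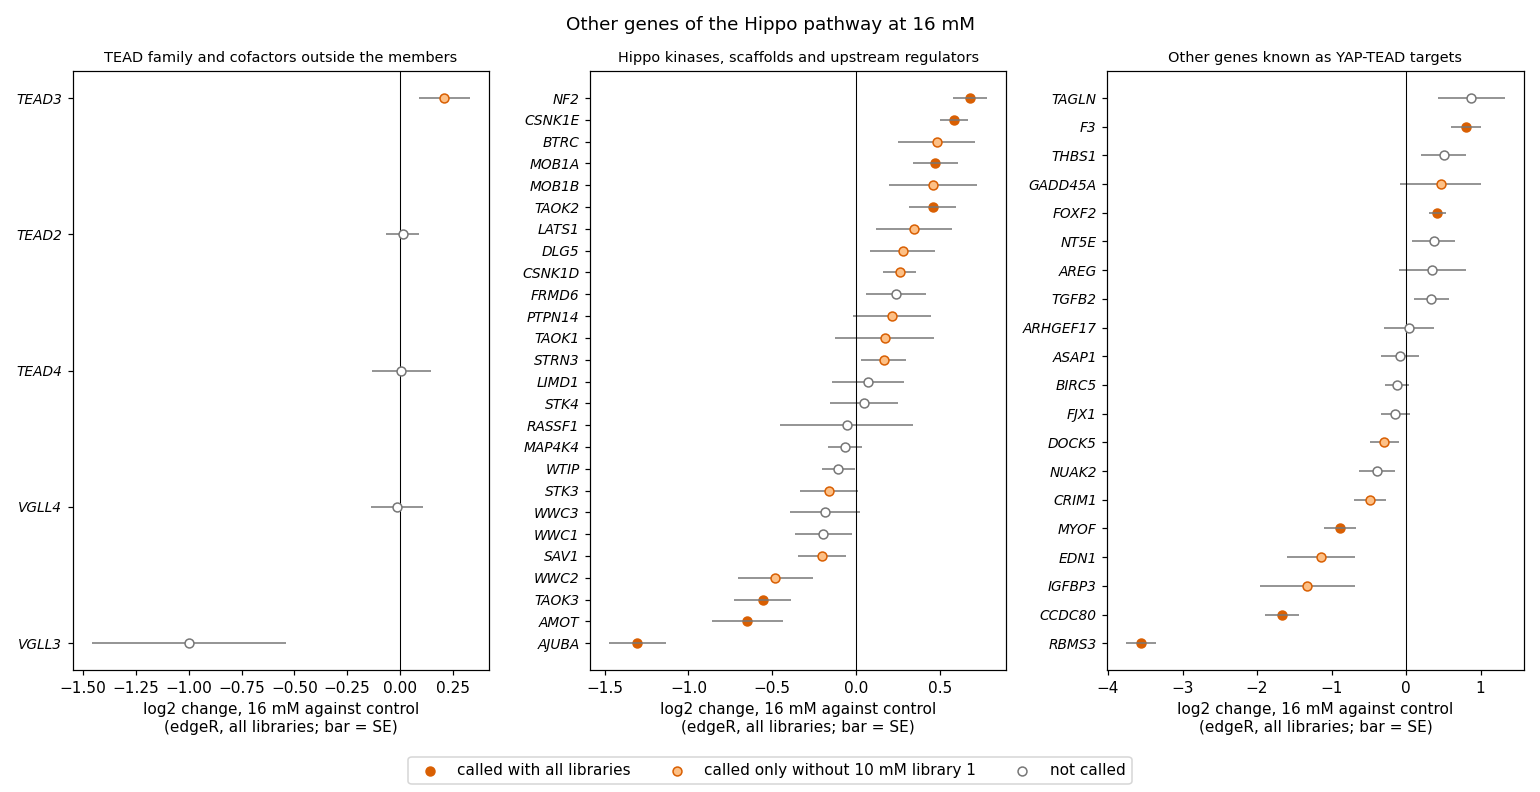
Log2 change at 16 mM against control (x axis, edgeR with all libraries, bars are SE) for the other TEAD genes and cofactors, the kinases and regulators, and the other known targets, ordered by change. Filled points have an adjusted p under 0.05 with all libraries, pale points only without 10 mM library 1; NF2 is highest among the regulators and AJUBA lowest, while RBMS3 is lowest among the targets drawn.

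Exons of antisense genes overlap YAP1, WWTR1, CCN2, AMOTL1 and AXL on the opposite strand in GENCODE 29. Strandedness of the libraries was not stated, so reads of these genes and of their antisense partners could not be told apart.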

How the data were processed

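Poly-A RNA of 17 BEAS-2B libraries was measured, and groups and replicate numbers came from the sample titles. The submitters' processing notes name HISAT, Bowtie2 2.3.4.3, RSEM 1.3.1, DESeq2 1.4.5 and build GRCh38.p13, without their roles. Read counts, under that name per the file headers, are treated as estimated counts because 13.1% of the deposited values are not whole. The deposited FPKM values, per the file headers, are scaled for length and depth. The deposited TPM columns served only as a check. The authors' own comparisons are deposited as log2 changes with a p-value and a q-value, and are printed only where so credited.

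Counts were rounded and tested with edgeR 4.0.16 (R 4.3.3; TMM, filterByExpr, quasi-likelihood, two-sided, Benjamini-Hochberg over 12564 genes, threshold 0.05) in 1 fit of 3 groups with 14 residual degrees of freedom. The SE is the log2 change over the square root of F, and is derived here. The 10 genes are all named. Of the other lists, up to 3 called genes a comparison with at least 1 FPKM were named by size of change; 1 gene in the counts of the target list is not reported here. The members and lists were chosen with earlier results of these data known. The fit was tested on simulated data of 12564 genes. At 16 mM against control, 38% of 1.5-fold and 64% of 2-fold changes were found, and at 10 mM 28% and 68%. The simulated counts were drawn independently, without the pattern of an outlying library or closer sets, so these rates need not hold for the real libraries. Their spread and library scaling were taken from the fit with all libraries, 10 mM library 1 included. No change smaller than 1.5-fold was simulated. Alternatives were DESeq2 1.42.0, limma 3.58.1 on FPKM, other scaling and filters, the replicate block, the closer sets of libraries summed or as a term, and libraries left out. Figures used matplotlib 3.10.9.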

Additional observations from a re-analysis of the deposited data

Results flagged for a closer look

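In 10 mM library 1, 6 of the 10 genes stood far from the other 10 mM libraries, by a gap large against the range of the group (Dixon's criterion). The values were 12.05 FPKM for YAP1, 3.48 for TEAD1, 3.09 for AMOTL1, 30.2 for AMOTL2 and 4.32 for LATS2, each below the others, and 85.59 for ANKRD1, above them. In control library 1, CCN1 at 491.59 FPKM and CCN2 at 418.68 FPKM stood above the other 5 control libraries. Groups numbering 30 were examined and 8 were picked out, where chance picks about 1 in 20. The genes share libraries, so these are not separate events.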

How the results depend on the processing

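Counts below are given for 10 mM against control, 16 mM against control and 16 mM against 10 mM, in that order. Leaving out 1 library at a time gave 0 to 2, 1 to 5 and 0 to 3 called members, 7 to 22, 10 to 30 and 1 to 12 other pathway genes, and 1633 to 5670, 3559 to 8271 and 808 to 5537 genes in all. The highest values all came without 10 mM library 1, and the counts of 808 and 842 between the doses without 16 mM library 4 and 5. Other pathway genes called between the doses numbered 1 without 10 mM library 2 or 16 mM library 2, 4 or 5. Fitting only the groups compared called 0, 6 and 0 members, 6, 30 and 2 other pathway genes and 1530, 7979 and 569 genes. DESeq2 called 2 members in each comparison of 16 mM, beside 4973 genes against control and 2671 between the doses. DESeq2 size factors in edgeR called 2 members at 16 mM and 0 between the doses, beside 4427 and 1756 genes. Limma on FPKM without a filter called 6 other pathway genes at 10 mM. On the FPKM scale the median change of all genes at 10 mM was -0.11 rather than 0.05, and the uncalled estimates of CCN1, WWTR1 and AMOTL2 at 10 mM were below 0. Summing the closer sets called 0 members, 0 other pathway genes and 0 genes in every comparison (738, 1288 and 457 genes at an unadjusted p under 0.05). With 10 mM library 1 also left out, chosen after seeing the data, it called 0, 1 and 0 members and 3, 14 and 0 other pathway genes. Of all 13465 genes tested it called 246, 3480 and 0. The member was AMOTL1. That setting has fewer samples. With the closer set as a term and without 10 mM library 1, also chosen after seeing the data, 4, 6 and 3 members, 33, 37 and 26 other pathway genes and 7223, 9284 and 7229 genes were called, and AMOTL1 at 10 mM was 0.12 (adjusted p = 0.036) rather than -0.02. Otherwise the cause was not tested.

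Same-numbered libraries deviated together with r from -0.39 to 0.41, over 0.1 in 12 of 16 pairs, as against 29 of 80 pairs of different numbers. The replicate numbers partly follow the closer sets, so these counts cannot tell pairing by number from the sets. Pairing by number within matching sets was not tested. The closer sets deviated together across groups. In pairs without 10 mM library 1, r was over 0.1 in 21 of 27 pairs of first sets and 16 of 16 of second sets. It was over 0.1 in 0 of 42 pairs of a first with a second set. That library still counted in the 10 mM mean from which deviations were taken. With the replicate block 0, 1 and 0 members, 9, 14 and 1 other pathway genes and 1824, 4153 and 1304 genes were called. With the block and without 10 mM library 1 these were 2, 6 and 3, then 28, 34 and 17, then 5653, 8506 and 5881; among the members AXL at 16 mM was then called (0.28, adjusted p = 0.039). Over its 29 alternatives the AMOTL2 estimate at 16 mM was 0.40 to 0.50 (adjusted p of 3.4e-08 to 0.69), and between the doses 0.28 to 0.46 (7.3e-06 to 0.76). Intervals and SE do not cover errors in assigning reads.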
